A study of Mus musculus with 15 samples.

Results

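Of the 19069 genes in the RNA count files, 27 encode subunits of the nuclear RNA polymerases, taken as every symbol made of Polr, a digit from 1 to 3 and lower case letters. They comprise 3 subunits used only by polymerase I, 2 shared by polymerases I and III, 7 used by polymerase II, 5 shared by all of them and 10 used only by polymerase III. All samples were cultures of NIH3T3, a long-established fibroblast line from mouse embryos. Untreated cells were compared with cells that had their medium removed, were washed, were exposed to UV-C (254 nm, 80 J/m2) and were kept for 6 h in fresh medium containing DMSO. The labels do not say whether untreated cells were washed, re-fed or given DMSO, so UV cannot be told apart from this handling. RNA-seq covered 3 untreated and 3 irradiated libraries of 14211528 to 22032701 counts. FAIRE-seq, which recovers open chromatin, and ChIP-seq for acetylated lysine 27 of histone H3 (H3K27ac), a mark of active promoters, had 2 samples per condition that the authors pooled.

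RNA polymerase I transcribes the large ribosomal RNA precursor, polymerase II the messenger RNAs, and polymerase III transfer RNAs, 5S ribosomal RNA and other short RNAs. Each enzyme has its own pair of large subunits that form the active centre, an alpha-like pair on which assembly starts, a stalk, and a set of small subunits common to all of them. Ultraviolet lesions stall polymerase II on the template, and its largest subunit, the product of Polr2a, is known to be ubiquitylated and degraded after such damage. Transcript levels were measured here and protein levels were not.

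The 8 fibroblast markers checked lay between 88.5 CPM, for Thy1, and 10832 CPM, for Fn1, and 8 markers of other cell types lay between 0.091 (Myod1) and 5.40 CPM (Tubb3). CPM is the read count scaled to a common library size after TMM normalisation. The summed CPM of the fibroblast markers ran from 15963 to 21730 without UV and from 20975 to 37581 after it, and 2 of the 8 rose. That of the other markers was 9.10 to 15.1 and 8.54 to 13.3, and the part of these levels in the results was not tested. Irradiated replicate 1 stood apart, with 17607 genes detected against 18350 to 18787 in the other libraries. A chi-square per degree of freedom grows as the counts of a pair of libraries differ more. For irradiated replicate 1 it was 44.4 and 42.3 against the others of its group, which had 4.62 between them. Untreated replicate 1 also differed from its group, at 35.5 and 33.0, against 14.2 between the others. Since the cells were measured in bulk and CPM is a share of the library, fewer cells with a transcript and less of it per cell cannot be told apart. The labels do not say whether libraries came from separate cultures, so the p-values measure the spread between these libraries, which may be technical.

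Promoters of the subunits with the smallest p-values in each direction of the RNA test are shown because the promoter tables measure chromatin there. Each is the stretch of 250 bases before the start site, read 5′ to 3′ on the gene's strand, from RefSeq on GRCm38.p6, a later build than the mm9 of the files. Capitals mark matches, on either strand, to the letters of the GC box (GGGGCGGGG) or the TATA box (TATAAA).
Polr2l, higher after UV, chr7:141475154-141475403, minus strand: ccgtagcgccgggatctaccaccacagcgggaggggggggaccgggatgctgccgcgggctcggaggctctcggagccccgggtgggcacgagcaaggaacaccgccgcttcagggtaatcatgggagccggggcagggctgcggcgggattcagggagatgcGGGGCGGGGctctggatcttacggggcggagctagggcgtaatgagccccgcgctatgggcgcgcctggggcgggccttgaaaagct
Polr2a, higher after UV, chr11:69758634-69758883, minus strand: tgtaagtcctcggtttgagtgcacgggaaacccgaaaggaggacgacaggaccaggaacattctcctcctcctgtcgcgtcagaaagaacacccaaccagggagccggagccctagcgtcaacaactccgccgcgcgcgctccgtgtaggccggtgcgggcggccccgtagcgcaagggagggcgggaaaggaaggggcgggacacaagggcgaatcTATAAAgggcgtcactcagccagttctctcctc
Polr3g, lower after UV, chr13:81711014-81711263, minus strand: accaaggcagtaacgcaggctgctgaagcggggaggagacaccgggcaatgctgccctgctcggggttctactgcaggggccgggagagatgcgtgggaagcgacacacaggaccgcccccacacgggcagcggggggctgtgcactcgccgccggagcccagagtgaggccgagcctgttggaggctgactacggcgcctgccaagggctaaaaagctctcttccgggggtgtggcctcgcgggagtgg
Polr3f, lower after UV, chr2:144527495-144527744, plus strand: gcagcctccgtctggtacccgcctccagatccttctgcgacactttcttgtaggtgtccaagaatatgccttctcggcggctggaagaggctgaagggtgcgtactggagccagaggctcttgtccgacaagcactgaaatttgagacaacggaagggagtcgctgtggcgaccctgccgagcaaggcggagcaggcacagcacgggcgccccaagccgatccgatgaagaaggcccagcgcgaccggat

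The TATA box letters of Polr2a begin 33 bases before its start, and the GC box letters of Polr2l begin 87 bases before its start. Of the 27 subunits 21 matched a RefSeq promoter entry. Their windows held a median of 19 CpG dinucleotides and 61.6% G and C, against 14 and 58.8% for 11085 promoters of tested genes in that table. The TATA box letters occurred in 2 of the 21 (9.52%, Polr2a and Polr2c), against 7.76% of promoters of tested genes and 13% of all 27025 promoters. The GC box letters occurred in 5 (23.8%), against 18% and 10.5%. The ETS letters CCGGAAGT occurred in 4 (19%, Polr1c, Polr2f, Polr2j and Polr3b), against 4.97% and 2.93%. The CCAAT letters occurred in 6 (28.6%), against 35.8% and 34.5%, and the E-box letters CACGTG in 2 (9.52%), against 7.93% and 6.05%. The letters searched for NRF1, YY1 (AAGATGGCG), AP-1 (TGANTCA) and CRE (TGACGTCA) were in none of these 21 windows, and 1.38%, 0.938%, 4.95% and 2.49% of promoters of tested genes hold them. None of the letter strings searched contains another, and all matches are descriptions of the letters.

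Polymerase subunit RNAs changed in both directions after UV, and within the same enzyme some rose while others fell. All 27 had enough counts to test. In edgeR's quasi-likelihood test with Benjamini-Hochberg adjustment over 14925 genes, at an adjusted p below 0.05, 6 subunits rose (22.2%), 7 fell (25.9%) and 14 did not pass. Among all tested genes the shares were 7.7% up and 12.4% down, 20.1% together. The counts of calls depend on which libraries are included. Leaving out 1, which also leaves fewer libraries to measure the spread, gave 2 to 8 rises and 2 to 12 falls. Without irradiated replicate 3 there were 2 of each among the subunits and 585 rises and 1139 falls among all genes. Every called subunit kept its direction in each of these fits. A subunit that did not pass is not thereby shown to be unchanged. For 18 of the 27 (66.7%), 9 in each direction, the irradiated and untreated libraries did not overlap in CPM, against 33.9% of all tested genes (16.6% higher and 17.3% lower). The summed CPM of the 27 was 1414 ± 119 in untreated and 1470 ± 221 in irradiated libraries (mean ± SD, n = 3 per group), ranges that overlap. The median log2 fold change of the subunits was −0.09, against −0.01 for all tested genes, and over the alternatives it lay between −0.34 and 0.06. Its sign therefore depends on the alternative. The median was 0.44 for the subunits of all polymerases and 0.30 for those of polymerase II, between 0.21 and 0.65 and between 0.06 and 0.44 over the alternatives.

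**Figure D1:**
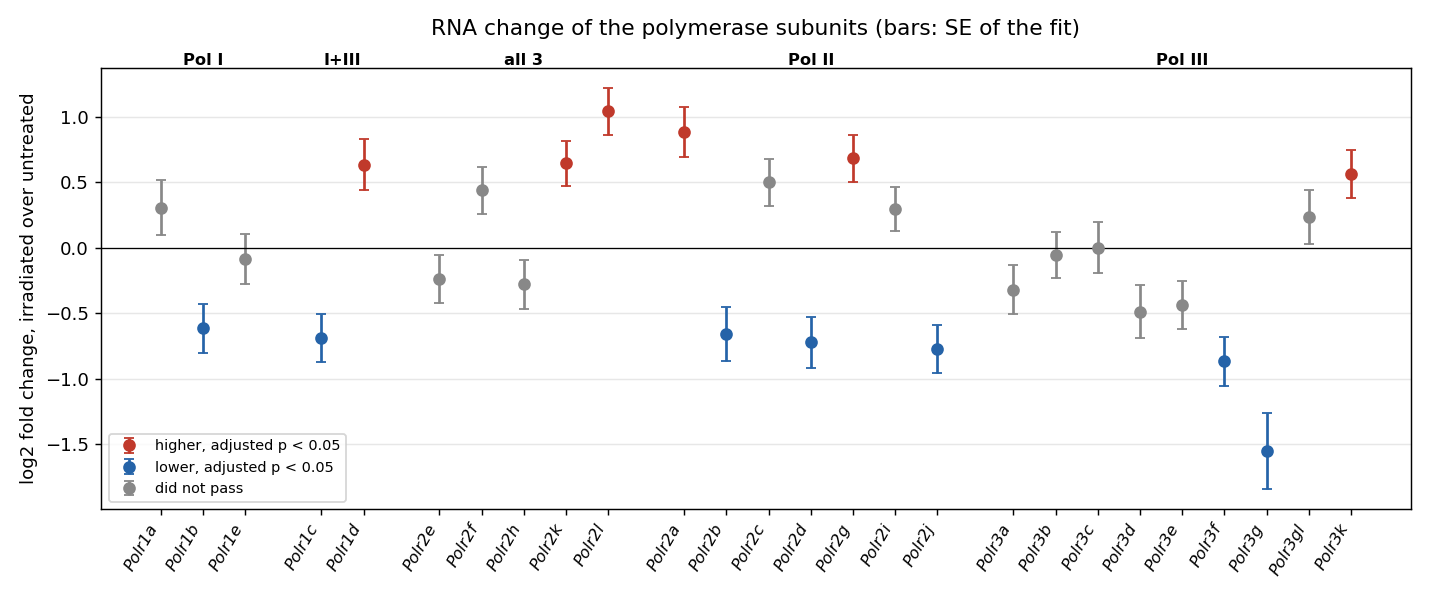
Log2 fold change of the RNA of the subunits, with 1 of the 27 not drawn, irradiated over untreated, from the edgeR fit, with bars for its SE and colours for the call. The columns are grouped by polymerase, with "I+III" and "all 3" for shared subunits. Values run from −1.55 for Polr3g to 1.04 for Polr2l, and each group other than the subunits of all polymerases holds at least 1 call of a fall.

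Polr2a, which encodes the catalytic subunit of polymerase II and its C-terminal repeat domain, rose. It was at 38.6, 31.7 and 37.0 CPM in untreated replicates 1 to 3 and at 81.9, 56.8 and 59.7 CPM in irradiated replicates 1 to 3. The lowest irradiated library lay above the highest untreated one, and the log2 fold change was 0.89 ± 0.19 (SE, adjusted p = 0.00256 in edgeR's test). Polr2b, which encodes the second largest subunit and completes the active centre with the Polr2a product, fell. It was at 198, 198 and 162 CPM in untreated and 145, 98.2 and 111 CPM in irradiated libraries, again without overlap (log2 fold change −0.66 ± 0.21, adjusted p = 0.0309). The call of Polr2b was lost in 6 of 12 alternatives, among them DESeq2 (adjusted p = 0.0641) and the fit without irradiated replicate 3 (adjusted p = 0.233). Its direction was the same in all 12, with adjusted p up to 0.233.

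The other polymerase II subunits also split. Polr2g, which encodes a stalk subunit, was at 47.7, 60.3 and 47.5 CPM in untreated and 86.1, 77.1 and 86.2 CPM in irradiated libraries (log2 fold change 0.68 ± 0.18, edgeR adjusted p = 0.0112). Its partner in the stalk, Polr2d, was at 26.2, 25.4 and 19.3 CPM and at 17.4, 12.1 and 13.4 CPM (log2 fold change −0.72 ± 0.19, edgeR adjusted p = 0.012). Neither overlapped between the groups, so that one stalk transcript rose and the other fell. Polr2j, which encodes one of the alpha-like pair, fell from 40.8, 43.4 and 31.5 CPM to 25.6, 21.8 and 20.3 CPM (log2 fold change −0.77 ± 0.18, edgeR adjusted p = 0.00512). The other alpha-like subunit, encoded by Polr2c, had a log2 fold change of 0.50 ± 0.18 and did not pass (edgeR adjusted p = 0.0566), although its irradiated libraries, at 74.3 to 86.3 CPM, all lay above the untreated ones at 50.8 to 62.6 CPM. It passed as higher in 4 of 12 alternatives (edgeR adjusted p from 0.00919 to 0.0256). Polr2i, which encodes a zinc ribbon subunit, was at 18.1 to 19.2 and 20.6 to 24.0 CPM and did not pass (log2 fold change 0.30, edgeR adjusted p = 0.261). For all 7 polymerase II subunits the groups did not overlap, 4 being higher and 3 lower in irradiated cells. Among all tested genes 16.6% were higher and 17.3% lower without overlap. Without irradiated replicate 3 the calls of Polr2d, Polr2g and Polr2j were lost (edgeR adjusted p = 0.0706, 0.108 and 0.0612), and that of Polr2d also with DESeq2 (adjusted p = 0.0576) and without untreated replicate 1 or 2 (edgeR adjusted p = 0.0545 and 0.0808).

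Of the 5 subunits common to all polymerases, 2 rose (40%) and none fell, against 7.7% and 12.4% of all tested genes. Polr2l, which encodes a small zinc-binding subunit, had the largest rise of the 27, from 45.3, 44.8 and 40.9 CPM to 103, 77.3 and 89.4 CPM. Every irradiated library lay far above every untreated one, a 2.06-fold difference (log2 fold change 1.04 ± 0.18, edgeR adjusted p = 0.000472). Polr2k, which encodes another small zinc-binding subunit, rose from 23.6, 26.98 and 22.0 CPM to 38.4, 35.6 and 39.2 CPM (log2 fold change 0.64 ± 0.17, edgeR adjusted p = 0.0106). The remaining 3 did not pass: Polr2f had a log2 fold change of 0.44 (edgeR adjusted p = 0.0957), Polr2e of −0.24 and Polr2h of −0.28. Polr2f did not overlap between the groups, at 27.7 to 36.9 and 40.9 to 49.1 CPM, while the ranges of Polr2e and Polr2h did. Without irradiated replicate 3 the call of Polr2k was lost (edgeR adjusted p = 0.106). Without irradiated replicate 1, and with library totals in place of TMM, Polr2h passed as lower (edgeR adjusted p = 0.0394 and 0.00513). Polr2f passed as higher with a filter of 1 CPM in 3 libraries and without untreated replicate 1 or 2 (edgeR adjusted p = 0.0341, 0.0277 and 0.0242).

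The alpha-like subunits shared by polymerases I and III moved apart. Polr1d was at 90.9, 106 and 77.5 CPM in untreated and at 156, 125 and 144 CPM in irradiated libraries (log2 fold change 0.64 ± 0.20, edgeR adjusted p = 0.027). Polr1c was at 63.5, 77.0 and 61.2 CPM and at 46.6, 35.2 and 43.0 CPM (log2 fold change −0.69 ± 0.18, edgeR adjusted p = 0.0115). The groups overlapped for neither gene, and both calls were lost without irradiated replicate 3 (edgeR adjusted p = 0.175 and 0.0739). That of Polr1d was also lost without a low-count filter (edgeR adjusted p = 0.0794).

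Among subunits used only by polymerase I, 1 of 3 passed (33.3%), against 20.1% of all tested genes. Polr1b, which encodes the second largest subunit, fell from 80.9, 78.2 and 72.7 CPM to 62.2, 45.7 and 43.4 CPM (log2 fold change −0.61 ± 0.19, edgeR adjusted p = 0.0263). The catalytic subunit gene Polr1a was at 230, 198 and 191 CPM in untreated and at 317, 213 and 235 CPM in irradiated libraries. Those ranges overlap, and the log2 fold change of 0.30 ± 0.21 did not pass (edgeR adjusted p = 0.4). Polr1e, which encodes a subunit related to the initiation factors TFIIE and TFIIF, had a log2 fold change of −0.09. The call of Polr1b was lost in 6 of 12 alternatives, with adjusted p up to 0.283 in the edgeR fit without irradiated replicate 3. The subunits of polymerase I filed under other symbols did not pass either. Twistnb, a stalk subunit, had a log2 fold change of −0.12, Cd3eap, the partner of Polr1e, one of 0.17 and Znrd1, a zinc ribbon subunit, one of 0.19.

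Of 10 polymerase III subunits 2 fell (20%) and 1 rose (10%), shares near the 12.4% and 7.7% of all tested genes, with a median log2 fold change of −0.38, which lay between −0.63 and −0.22 over the alternatives. Polr3g, which encodes the form of an initiation subunit known for its abundance in stem and tumour cells, had the largest fall of the 27. Its reads numbered 322, 258 and 251 in untreated and 108, 49 and 51 in irradiated libraries, or 16.7, 11.7 and 9.61 against 6.68, 3.30 and 2.95 CPM. The groups did not overlap, and the log2 fold change was −1.55 ± 0.29 (edgeR adjusted p = 0.000917), or 0.341 of the untreated level. Polr3gl, the gene of the alternative form, was at 8.97, 13.5 and 13.1 CPM and at 11.3, 14.3 and 16.3 CPM and did not pass (log2 fold change 0.24 ± 0.21, edgeR adjusted p = 0.558). Polr3f, which encodes another member of the same initiation subcomplex, fell from 48.3, 53.3 and 45.5 CPM to 31.5, 21.1 and 27.9 CPM (log2 fold change −0.87 ± 0.19, edgeR adjusted p = 0.00253). The third gene of that subcomplex, Polr3c, had a log2 fold change of 0.00 ± 0.19. Polr3k, which encodes a zinc ribbon subunit, rose from 55.7, 58.3 and 46.1 CPM to 86.2, 67.4 and 82.8 CPM (log2 fold change 0.56 ± 0.18, edgeR adjusted p = 0.0373). Its call was lost with DESeq2 (adjusted p = 0.0753), without a low-count filter and without irradiated replicate 3 (edgeR adjusted p = 0.115 and 0.246). Crcp, a polymerase III subunit gene filed under a symbol outside the Polr series, had a log2 fold change of 0.52 and did not pass (edgeR adjusted p = 0.0632).

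Irradiated replicate 1, the library with the fewest genes detected, held the highest irradiated CPM of 24 of the 27 subunits. The exceptions were Polr2g, Polr2k and Polr3gl. How many of all tested genes were highest in that library was not counted. Its TMM factor was 0.803, against 1.05 and 0.932 in irradiated replicates 2 and 3. A lower factor gives a higher CPM at the same count and library total, and its part in the 24 was not tested. Risen subunits such as Polr2a and Polr2l are among the 24, and so are Polr3a, Polr3d and Polr3e. The catalytic subunit gene Polr3a was at 40.1, 33.9 and 34.9 CPM in untreated and at 36.1, 24.0 and 26.99 CPM in irradiated libraries, and its log2 fold change of −0.32 ± 0.19 did not pass (edgeR adjusted p = 0.282). Without that library its log2 fold change was −0.52 and passed (edgeR adjusted p = 0.0156). Polr3d and Polr3e encode a pair related to the initiation factor TFIIF. With all libraries they were at −0.49 and −0.44 and did not pass (edgeR adjusted p = 0.104 and 0.11). Without irradiated replicate 1 they were at −0.75 and −0.62 (edgeR adjusted p = 0.000412 and 0.0033). In all, 12 subunits passed as lower without irradiated replicate 1, the 5 added including these 3 and Polr2h, and 6 passed as higher. Among all genes 2849 passed as lower in that fit, in place of 1854, and 1188 as higher, in place of 1149. Polr3b, which encodes the second largest subunit of polymerase III, had a log2 fold change of −0.05 and did not pass in that fit either. The part of that library's make-up in these differences was not tested.

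**Figure D2:**
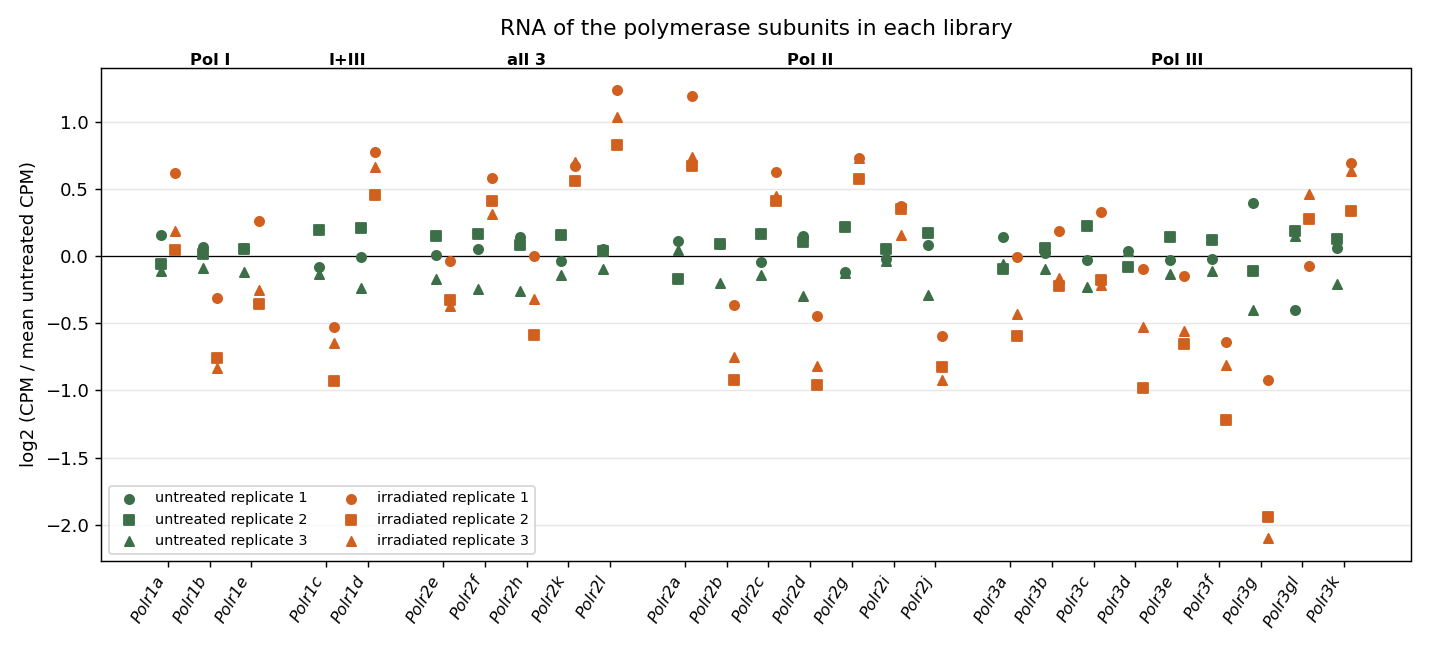
RNA of the subunits, with 1 of the 27 not drawn, in each of the 6 libraries, as log2 of its CPM over the mean untreated CPM. Circles, squares and triangles are replicates 1, 2 and 3, in green for untreated and orange for irradiated cells. The irradiated points of Polr2l and Polr2a lie above all untreated points and those of Polr3f and Polr3g below them, and the circle of irradiated replicate 1 is the highest irradiated point of Polr3d and Polr3e.

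How partner subunits shifted against each other was read from the ratio of their reads within each library, which no scaling of libraries changes. Pairs were taken from the known architecture of the enzymes, and were set after the fold changes had been seen. Of 8 pairs, 7 had ratios that did not overlap between the groups, against 31.9% of all pairs of tested genes with reads in every library. Each of the 7 had p = 0.1 in an exact two-sided permutation test, the smallest value that 3 against 3 libraries can give (p = 0.114 adjusted over the 8 pairs). No ratio can therefore pass a threshold of 0.05 in this design, and the ratios are described by their spread.

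The log2 ratio of Polr1d to Polr1c was 0.52, 0.46 and 0.34 in untreated and 1.75, 1.83 and 1.75 in irradiated libraries, a shift of 1.34 with SDs of 0.0904 and 0.0468 (n = 3 per group). In the alpha-like pair of polymerase II the counterpart of Polr1c is Polr2c and that of Polr1d is Polr2j, and there it was Polr2c that gained. Its log2 ratio of Polr2c to Polr2j was 0.41, 0.53 and 0.69 in untreated and 1.76, 1.77 and 1.91 in irradiated libraries, a shift of 1.27. In the stalk of polymerase II the log2 ratio of Polr2g to Polr2d went from 0.86, 1.25 and 1.30 to 2.31, 2.67 and 2.69, a shift of 1.42. In these pairs one transcript gained on its partner by more than 2-fold in every comparison of an irradiated with the mean untreated library.

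The large subunits of polymerases I and II shifted towards the catalytic subunit. The log2 ratio of Polr2a to Polr2b was −2.36, −2.65 and −2.13 in untreated and −0.82, −0.79 and −0.89 in irradiated libraries, a shift of 1.54. That of Polr1a to Polr1b was 1.51, 1.34 and 1.39 and then 2.35, 2.22 and 2.43, a shift of 0.92, although Polr1a alone did not pass the test. For polymerase III the log2 ratio of Polr3a to Polr3b moved the other way and by less, by −0.27, from −0.34, −0.62 and −0.42 to −0.65, −0.83 and −0.72. The TFIIF-like pair Polr3d and Polr3e kept overlapping ratios, with a shift of −0.09 (exact permutation p = 0.5). The largest shift and the widest spread were in the alternative forms of polymerase III. Polr3g gave 65.0%, 46.6% and 42.3% of the reads of Polr3g and Polr3gl together in untreated and 37.2%, 18.7% and 15.3% in irradiated libraries. Without irradiated replicate 1 the shifts of the 8 pairs had the same signs, and those of Polr3gl against Polr3g and Polr3d against Polr3e were 2.38 and −0.15.

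**Figure D3:**
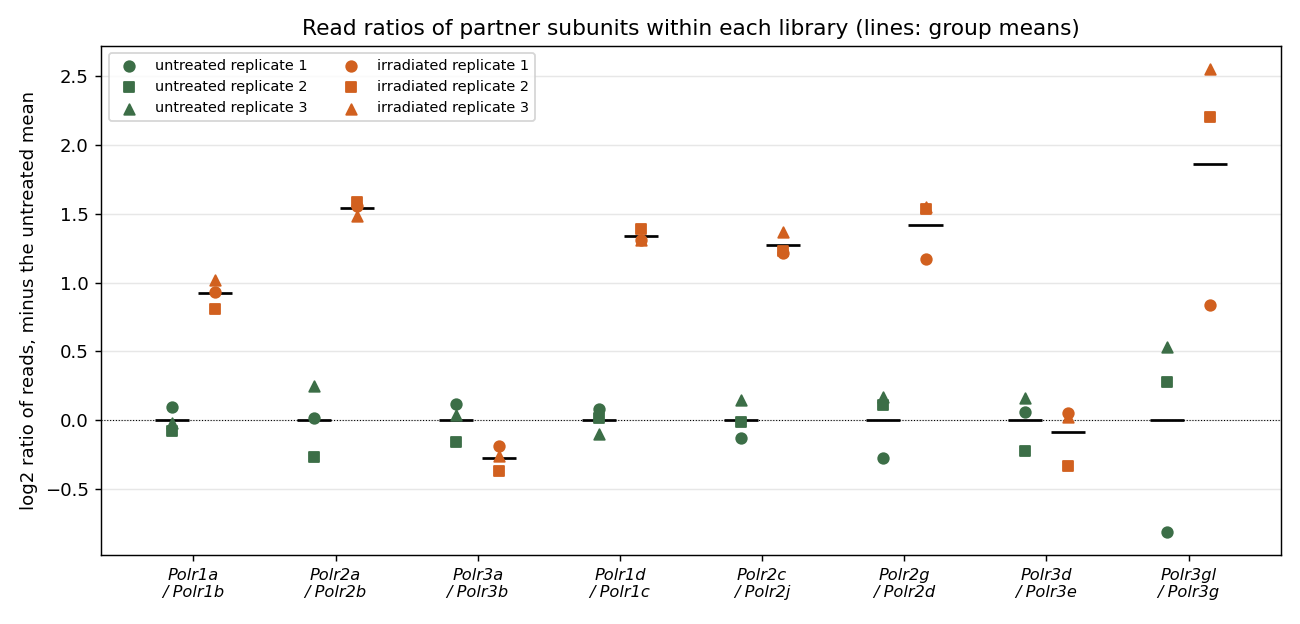
Log2 ratio of the reads of partner subunits in each library, minus the mean of the untreated libraries, with black lines for group means. Green marks are untreated and orange marks irradiated replicates. The irradiated points of Polr1d over Polr1c lie close together at a shift of 1.34, those of Polr3gl over Polr3g are spread around 1.86, and only Polr3d over Polr3e overlaps among these 8 pairs.

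At the promoters, FAIRE signal was lower after UV for 24 of the 27 subunits. The values are the authors' log2 enrichment over input in a 1000 bp promoter, pooled over samples, which leaves no replicate spread to test against. The intervals below are exact 95% intervals of the depth-scaled read ratio and cover counting error only. The median FAIRE difference, irradiated minus untreated, was −0.41, against −0.27 for all promoters of tested genes, of which 76.7% were below 0. The interval of the read ratio lay below 1 for 9 of 27 and above 1 for none, against 24.6% and 1.03% of the promoters of tested genes. A loss of at least 1 occurred at Polr3g alone, against 1.39% of promoters, and no subunit gained 1, against 0.0067%. Polr3g went from 56 to 16 FAIRE reads, a log2 enrichment of 1.37 and then 0.33 and a read ratio of 0.356 (interval 0.191 to 0.629). Polr3d had 69 and 24 reads (ratio 0.433, interval 0.26 to 0.698) and Polr2i 155 and 71 (ratio 0.571, interval 0.425 to 0.76). Polr2a, whose untreated FAIRE enrichment of 2.66 was the highest of the 27, went to 2.01, with 193 and 104 reads, while its RNA rose. The 3 subunits above 0 were Polr1d (0.25), Polr2k (0.23) and Polr3a (0.10), each with an interval that includes 1. After quantile normalization of the conditions the median FAIRE difference of the subunits was 0.0225, and after centring on all promoters it was −0.14.

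H3K27ac at the same promoters went both ways, as it did over the promoters of all tested genes. The median difference was 0.05, against −0.06 for all promoters of tested genes. The interval of the read ratio lay above 1 at 8 subunits and below 1 at 8, against 24.8% and 25.8% of promoters. A gain of at least 1 occurred at Polr1c and a loss of at least 1 at Polr3g, against 2.93% and 4.26% of promoters. Polr3g went from 269 to 115 reads, a log2 enrichment of 3.31 and then 2.18 (read ratio 0.424, interval 0.338 to 0.529), so that its RNA, FAIRE and H3K27ac were all lower. Mblac2 starts on the opposite strand 404 bases upstream of Polr3g in RefSeq (log2 fold change −0.38, edgeR adjusted p = 0.32), so these promoter reads may also be shared. Polr1c went from 798 to 1684 reads, a log2 enrichment of 4.09 and then 5.15 (read ratio 2.09, interval 1.92 to 2.28), while its RNA fell. RefSeq places the start of Yipf3 on the opposite strand, 35 bases upstream of that of Polr1c, so that the promoter reads of these genes cannot be told apart. The mean CPM of Yipf3 RNA was 30.0 ± 7.11 without and 43.6 ± 8.27 with UV (SD, n = 3 per group, log2 fold change 0.54, edgeR adjusted p = 0.0687). Such an opposite start lies within 1000 bases upstream of 10 of the 21 subunits matched in RefSeq. The share of all promoters with such a start was not counted. Among the 10 are Polr2l, where Tspan4 starts 83 bases upstream (log2 fold change 0.34, edgeR adjusted p = 0.317), and Polr1d. Lnx2 starts 774 bases upstream of Polr1d (log2 fold change −0.81, edgeR adjusted p = 0.00476).

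Acetylation and RNA were both higher at Polr2a, Polr2l, Polr2k and Polr1d. Polr2a had 562 and 860 H3K27ac reads (read ratio 1.52, interval 1.36 to 1.69), Polr2k 171 and 268 (ratio 1.55, interval 1.28 to 1.89), Polr2l 877 and 1127 (ratio 1.27, interval 1.17 to 1.39) and Polr1d 266 and 340 (ratio 1.27, interval 1.08 to 1.49). The other risen subunits had less acetylation. Polr2g went from 229 to 117 reads (ratio 0.507, interval 0.402 to 0.636) and Polr3k from 246 to 195 (ratio 0.786, interval 0.648 to 0.952). Among the 7 subunits whose RNA fell, H3K27ac was below 0 at 4 and above 0 at 3, and FAIRE was below 0 at all 7. FAIRE was also below 0 at 4 of 6 risen and 13 of 14 uncalled subunits and at 76.7% of promoters of tested genes, and H3K27ac at 55.7% of those promoters. For Polr2b, Polr2d, Polr2j and Polr3f the interval of the H3K27ac ratio included 1, with ratios from 0.903 to 1.12. Polr1b went from 138 to 93 H3K27ac reads (ratio 0.668, interval 0.508 to 0.875). RNA and H3K27ac differences had the same sign at 8 of the 13 called subunits (61.5%) and 15 of all 27 (55.6%), shares near the 55.4% of all called and 51.7% of all tested genes. Across the 27 genes Pearson's r between the RNA and H3K27ac differences was 0.23 (Spearman's rho 0.24), between RNA and FAIRE 0.43 (0.37) and between FAIRE and H3K27ac 0.49 (0.44). Across 14925 tested genes r was 0.09, 0.07 and 0.11. Genes are not independent replicates, and the FAIRE and H3K27ac values share 1 input.

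**Figure D4:**
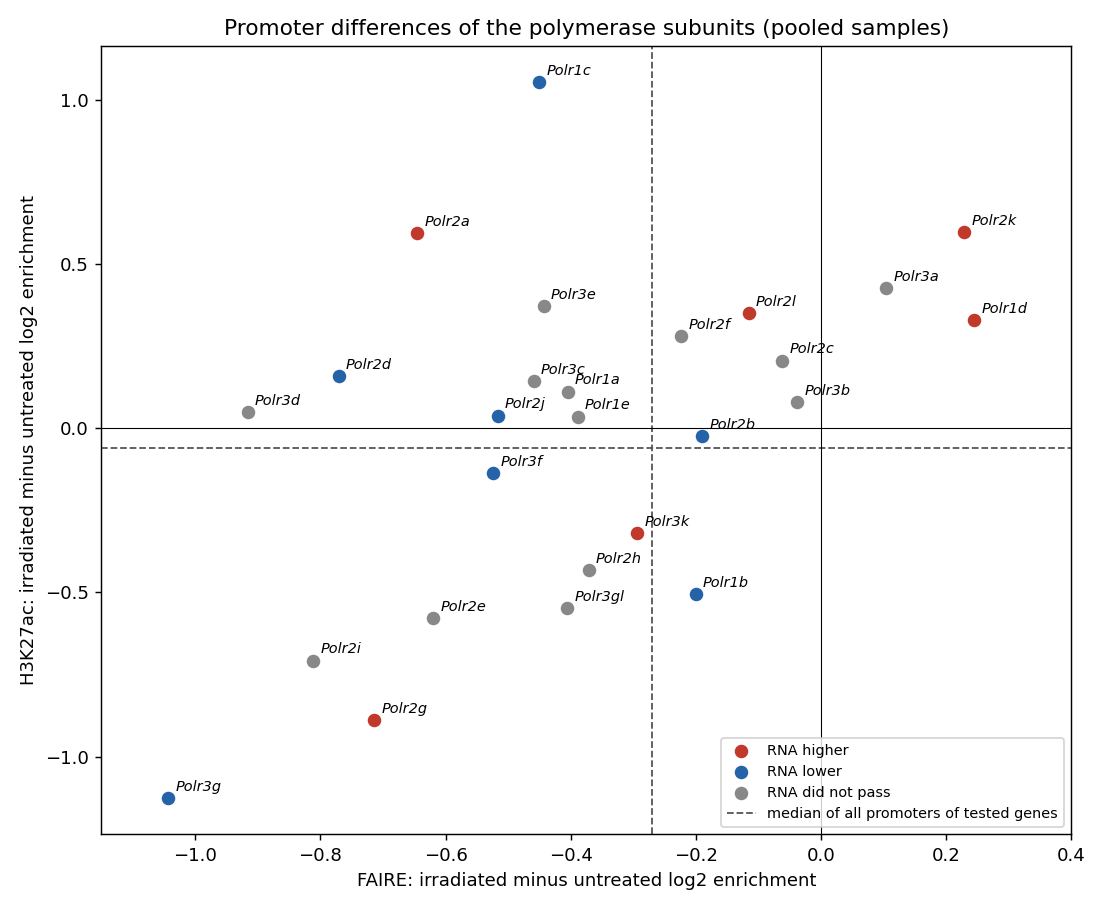
Difference in promoter FAIRE (horizontal) and H3K27ac (vertical) log2 enrichment, irradiated minus untreated, for each subunit, from pooled samples without error bars, with 1 of the 27 not drawn. Colours give the RNA call and dashed lines the medians of all promoters of tested genes, −0.27 and −0.06. Polr3g lies at the lower left, Polr1c at the top, and the points other than Polr1d, Polr2k and Polr3a lie left of 0.

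Initiation factors of the polymerases were followed in lists. Of 8 general initiation factors of polymerase II none rose and 3 fell, with a median log2 fold change of −0.13. Gtf2b, which encodes TFIIB, was at 50.2, 51.2 and 41.5 CPM in untreated and at 21.2, 19.3 and 17.8 CPM in irradiated libraries (log2 fold change −1.29 ± 0.18, edgeR adjusted p = 4.63e-05). Tbp, which encodes the TATA-binding protein used by all of these polymerases, was at 34.1, 35.8 and 29.8 CPM and at 17.0, 12.1 and 14.5 CPM (log2 fold change −1.19 ± 0.18, edgeR adjusted p = 0.000133). Both fell to less than the lowest untreated library in each irradiated library. The other fall, named after its value was seen, was Gtf2e1 (log2 fold change −0.74). Of 6 factors of polymerase I none rose and 1 fell, Taf1b, which encodes a subunit of the promoter selectivity factor SL1 (log2 fold change −0.66, edgeR adjusted p = 0.00911, and 0.0818 without irradiated replicate 3). Of 16 factors of polymerase III, the repressor Maf1 included, 1 rose and 4 fell. Snapc1 and Snapc2, which encode subunits of the complex that recruits polymerases to small nuclear RNA genes, fell, with log2 fold changes of −1.29 and −1.11 (edgeR adjusted p = 0.000182 and 0.000298). Snapc5, of the same complex, rose by 0.73 (edgeR adjusted p = 0.0314), a call lost in 6 of 12 alternatives, with adjusted p up to 0.114. The other falls, named after their values were seen, were the TFIIIC subunit genes Gtf3c3 and Gtf3c4, at −0.62 each. Maf1 was at −0.39 and did not pass (edgeR adjusted p = 0.155). Polrmt, the separate polymerase of mitochondria, fell by 0.78 on the log2 scale (edgeR adjusted p = 0.00392), a call lost without irradiated replicate 3 (edgeR adjusted p = 0.0631). Against 12.4% of all tested genes, falls made up 37.5%, 16.7% and 25% of the lists for polymerases II, I and III. Over the 12 alternatives these falls numbered 2 to 4, 0 to 4 and 2 to 6, and the rises 0 to 1, 0 and 0 to 3.

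The authors' deposited table of their RNA comparison holds 2068 genes with an adjusted p of up to 0.0999, and 8 subunits are among them. All 8 were called in the same direction in the test above. The other subunits called there, Polr1b, Polr1c, Polr2b, Polr2d and Polr3k, are not among the genes it holds. In the authors' deposited table Polr2l is at 1.06 (adjusted p = 0.00114), Polr2a at 0.91 (adjusted p = 0.00876) and Polr3f at −0.86 (adjusted p = 0.0263). The authors' deposited table gives Polr1d, Polr2g, Polr2j, Polr2k and Polr3g adjusted p-values between 0.0616 and 0.0958.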

How the data were processed

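RNA-seq, FAIRE-seq and H3K27ac ChIP-seq of NIH3T3 cells were analysed from deposited tables. The submitters' processing notes name mm9, TopHat, Bowtie 0.12.9, DESeq2 and MACS2. What each did, which counter made the counts and whether it used strand is not given in the sources used here. Whole read counts per gene, deposited unscaled, were the RNA values. The promoter tables hold, per the file headers, read counts of pooled samples and of the input, and log2 enrichment values deposited by the authors. Each equals the log2 ratio of pool reads plus 16 to scaled input reads plus 16, with scales of 0.657 and 0.528 for untreated and irradiated FAIRE and 0.706 and 0.712 for H3K27ac. The p-value and log2 columns of the authors' deposited comparison were only copied. The DMSO columns were read as the irradiated pools, after the labels' protocol, and 8 columns of another condition were not used. Peak lists were not used.

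Counts of 3 against 3 libraries were tested in R 4.3.3 with edgeR 4.0.16 (filterByExpr, TMM, glmQLFit, glmQLFTest, Benjamini-Hochberg over 14925 genes, threshold 0.05), and the steps were tested on simulated data. The SE is the log2 fold change over the square root of F. Replicate numbers were not used to pair the libraries in the main test. Read ratios were scaled by the pools' input scales, with exact Clopper-Pearson intervals at 95%. Python 3.11.15, pandas 2.3.3, scipy 1.17.1 and matplotlib 3.10.9 were used. Alternatives for RNA were DESeq2 1.42.0, other scalings and filters, the replicate number as a block and leaving out each library. For promoters they were other numbers of added reads, centring, quantile normalization and a threshold of 0.58 in place of 1. The mean over promoter rows was also planned, but no symbol had more than 1 row, so it could change nothing. The RNA alternatives for medians of lists were added after the data were seen. The members and lists were chosen with earlier results of these data known. Of the 27 subunits 1 is counted in the totals and is otherwise not reported here, nor is a pair that holds it. The others are each reported, with per-library values for those called and for Polr1a, Polr2a and Polr3a, and of each further list up to 2 called genes per direction by smallest p. The promoters shown are those of up to 2 called subunits per direction by smallest p.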

Additional observations from a re-analysis of the deposited data

How the results depend on the processing

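Polr2a, Polr2l, Polr3f and Polr3g were called in all 12 alternatives run for RNA, and the 13 called subunits had the same direction in each. The counts of subunits called higher and lower, 6 and 7, were 5 and 4 with DESeq2. Those of all genes, 1149 and 1854, were then 910 and 1395. With library totals alone 6 and 14 subunits were called. There the median log2 fold change over all tested genes was −0.24 in place of −0.01, and 905 of all genes were higher and 3739 lower. The 7 added there included Polr2e, Polr2h, Polr3a, Polr3b, Polr3d and Polr3e. With the replicate number as a block the counts were 6 and 9 subunits, Polr3d among those added, and 1276 and 2067 of all genes. Deviations of same-numbered libraries from their group means had correlations of 0.15, −0.58 and 0.50. Those of differently numbered libraries ran from −0.71 to 0.68, so these values neither show nor exclude pairing. Leaving out 1 library gave 2 to 8 subunits higher and 2 to 12 lower, and 585 to 1941 and 1139 to 2849 of all genes. The fewest came without irradiated replicate 3, with 2 and 2 subunits, and without untreated replicate 1 or 2 it was 4 lower.

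Among uncalled genes, leaving out 1 library gave log2 fold changes on both sides of 0 for Polr1e (−0.3177 to 0.0568), Polr3b (−0.2087 to 0.0899), Polr3c (−0.2125 to 0.2385), Twistnb (−0.2648 to 0.0659) and Cd3eap (−0.1354 to 0.3673). Signs also changed with library totals alone for Polr3c (−0.2431), Cd3eap (−0.0924) and Znrd1 (−0.0484), and for Polr3c in the replicate block (−0.0082) and the filter of 1 CPM in 3 libraries (−0.0016). The median FAIRE difference of −0.41 was −0.14 when centred and 0.0225 with quantile normalization. The single loss of 1 became 2 with 1 read added, 0 when centred or with quantile normalization and 7 at a threshold of 0.58. At 0.58, 2769 of 14925 promoters of tested genes lost FAIRE signal. For H3K27ac the median of 0.05 was −0.0679 with quantile normalization, where the single gain became 0, and at 0.58 there were 3 gains and 3 losses. Among the 14925 promoters of tested genes 1623 gained and 2166 lost H3K27ac at 0.58. The cause of these shifts between settings was not tested. FAIRE counts of 16 to 193 reads per promoter limit what could be seen there.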

Other observations

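Factors that act on finished or nascent polymerases were followed in 3 lists. Of 12 genes of polymerase assembly and nuclear import 2 rose and 1 fell, against 7.7% and 12.4% of all tested genes. Pdrg1 and Pih1d1, which encode members of the R2TP and prefoldin-like assembly machinery, rose by 1.01 ± 0.23 and 0.64 ± 0.17 on the log2 scale (edgeR adjusted p = 0.00411 and 0.0124). Pdrg1 was at 53.7, 46.0 and 35.4 CPM in untreated and at 124, 65.9 and 81.4 CPM in irradiated libraries, without overlap. Gpn1, which encodes a GTPase of polymerase II import, fell by 0.66 ± 0.17 (edgeR adjusted p = 0.0112). The calls of Pih1d1 and Gpn1 were lost without irradiated replicate 3 (edgeR adjusted p = 0.0756 and 0.118).

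Of 6 phosphatases of the C-terminal repeat domain of polymerase II, 1 fell (16.7%) and none rose, against 12.4% and 7.7% of all tested genes. Their median log2 fold change was −0.49. Ctdp1, which encodes the phosphatase FCP1, was at 35.7, 28.0 and 26.9 CPM in untreated and at 24.5, 13.6 and 13.8 CPM in irradiated libraries (log2 fold change −0.80 ± 0.22, edgeR adjusted p = 0.0143). For 5 of the 6 the irradiated libraries all lay below the untreated ones, against 17.3% of all tested genes. No rise was called in any of the 12 alternatives, and falls numbered 0 with DESeq2 and without untreated replicate 2 or irradiated replicate 3, and 5 with library totals alone or without irradiated replicate 1. Of 12 genes tied to ubiquitylation of the largest polymerase II subunit, 1 rose and 1 fell (8.33% each), against 7.7% and 12.4% of all tested genes. Tceb2, which encodes Elongin B, rose from 110, 126 and 112 CPM to 253, 212 and 218 CPM (log2 fold change 0.97 ± 0.19, edgeR adjusted p = 0.00147). Ercc8, which encodes the CSA protein of transcription-coupled repair, was at −0.62 ± 0.21 (edgeR adjusted p = 0.0442), a call lost in 8 of 12 alternatives, with adjusted p up to 0.252. Over the 12 alternatives falls numbered 0 to 6 in the ubiquitylation list and 0 to 5 in the assembly list.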
